A study of Nicotiana tabacum with 9 samples.

Results

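WRKY genes encode plant transcription factors named after their DNA-binding domain. The deposited tobacco (Nicotiana tabacum) table describes 153 of its 69500 genes with the word WRKY, and 41 of them had a mean value of at least 1 over the 9 leaf libraries. These 41 genes are described here. They were chosen by their description and by that mean, so their level is a description and not a finding. No WRKY description also named the NB-ARC domain of immune receptors, which would have removed a gene. Just inside the limit lay Nitab4.5_0004702g0020, Nitab4.5_0002944g0110 and Nitab4.5_0000294g0180, with means of 1.11, 1.16 and 1.18. Just outside it lay Nitab4.5_0007375g0020, Nitab4.5_0000200g0100 and Nitab4.5_0004506g0110, with means of 0.974, 0.943 and 0.877. Of the 112 WRKY genes below the limit, 21 were listed at 0 in all 9 libraries and 91 were above 0 in at least 1.

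RNA came from leaf tissue of 3 genotypes labelled K326, Y and KY, each sequenced as 3 libraries. K326 is a flue-cured tobacco variety. For Y and KY the labels give the name alone, and for no genotype do they give a treatment, a leaf position or an age. The series title concerns leaf yellowing and a gene of folate synthesis. Nothing in the labels ties the replicates to different plants, and a p-value here measures only the spread between libraries, part of which may be technical.

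WRKY proteins bind a short promoter element, the W-box, which stands in front of many defence genes and of WRKY genes themselves. MAP kinases phosphorylate some of them, and VQ-motif proteins bind others. In Arabidopsis, WRKY53 and WRKY6 are known from leaf senescence, WRKY33 from defence against necrotrophic fungi and WRKY70 from salicylic acid and jasmonate signalling. The deposited identifiers carry domain descriptions and no WRKY numbers, so the genes below are not matched to named WRKY factors. The descriptions set 1 subgroup apart: 34 of the 41 genes are described as DNA-binding WRKY alone, and 7 also carry a Zn-cluster domain, the mark of a WRKY group known in Arabidopsis to bind calmodulin.

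The values carry no named unit and add up to 551496 to 603165 in a library, and the number of reads behind them is unknown. Correlating log2(value + 1) over the 16348 genes with a mean of at least 1 gave Pearson's r of 0.899 to 0.964 within a genotype and 0.897 to 0.954 across genotypes. KY replicate 1 and K326 replicate 3 correlated best with each other, at 0.954, rather than with libraries of their own genotype. Leaf markers were abundant everywhere, with summed values of 28996 to 52048 for chlorophyll A-B binding genes and of 53817 to 78371 for RuBisCO small subunit genes. Core histone genes, which mark dividing cells, summed to 2226 to 4265 in K326, 1165 to 1807 in Y and 1065 to 3049 in KY. Genes with pollen or MADS-box descriptions summed to 1132 to 1308, 832 to 927 and 670 to 1364. The part of these differences in the WRKY results was not tested.

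A single WRKY gene separated K326 from the other genotypes. Nitab4.5_0000627g0060, of the Zn-cluster subgroup, had values of 2.98, 3.42 and 3.24 in K326 replicates 1 to 3, of 0.31, 0.37 and 0.43 in Y and of 0.29, 0.25 and 0.25 in KY. Every K326 library stood above every Y and KY library, and replicates lay close together. The mean was 3.21 ± 0.221 in K326, 0.37 ± 0.06 in Y and 0.263 ± 0.0231 in KY (SD, n = 3), so the K326 mean was 8.68 times the Y mean and 12.2 times the KY mean. In log2(value + 1), where the added 1 shrinks the differences of genes near 0, it fell by 1.62 in Y (SE 0.16, limma adjusted p = 0.000776) and by 1.74 in KY (SE 0.16, limma adjusted p = 0.000828). Both differences are taken from the same K326 libraries. Between KY and Y it was not called (log2 difference -0.12, SE 0.16, limma adjusted p = 0.846), although the lowest Y value, 0.31, lay above the highest KY value, 0.29.

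This gene passed the limit only through K326, since its mean over the Y and KY libraries was 0.317. With every gene above 0 in at least 1 library tested, 132 WRKY genes among them, it was again the only WRKY gene called in Y minus K326 and in KY minus K326. The identifiers place 6 genes on its scaffold, and the other 5 did not exceed 0.78 in any library. Tobacco is an allotetraploid whose genes often exist as near-identical copies, so the value of a single copy is uncertain, since it depends on how reads were assigned. Whether reads of each genotype match the reference sequence equally well was not tested. In bulk leaf RNA, fewer cells of a type and less RNA per cell cannot be told apart.

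**Figure D1:**
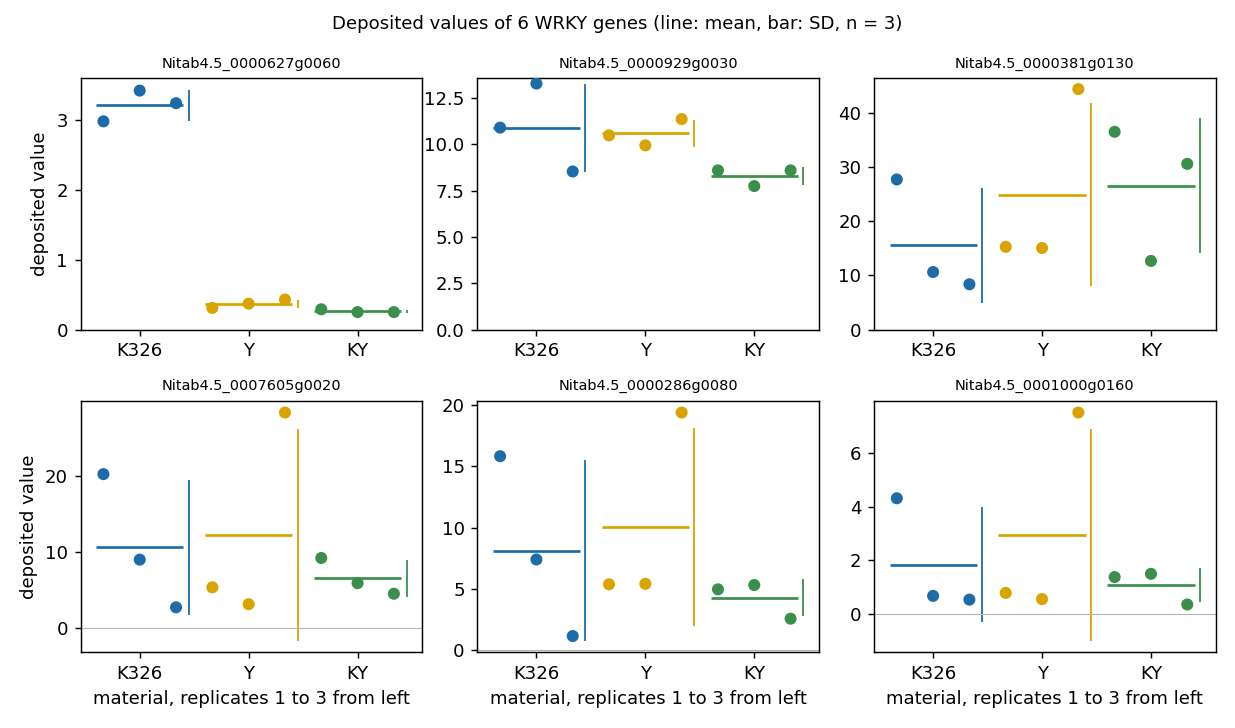
Deposited values (vertical axis, unit not named) of 6 WRKY genes in K326, Y and KY; each point is a library, with replicates 1 to 3 from left to right, the horizontal line is the mean and the vertical bar the SD (n = 3). Nitab4.5_0000627g0060 lies between 2.98 and 3.42 in K326 and at 0.43 or below in Y and KY.

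In Y against K326, 1 of 41 WRKY genes was lower and 0 were higher at an adjusted p below 0.05. Over all 16348 tested genes 1.99% were called, 0.777% higher and 1.21% lower. The WRKY log2 differences were above 0 for 19 genes and below 0 for 22, with a median of -0.012 against -0.079 over all tested genes. At an unadjusted p below 0.05, 2 of 41 passed, both lower in Y, beside 12.5% of all genes. The libraries of Y and K326 did not overlap for 4 WRKY genes, all lower in Y, beside 22.2% of all genes.

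The remaining WRKY genes with large differences between Y and K326 were not called. Nitab4.5_0000915g0120 had values of 3.68, 2.86 and 4.77 in K326 and of 1.74, 1.78 and 2.51 in Y. The groups did not overlap, and the log2 difference was -0.65 (SE 0.25, limma adjusted p = 0.33). The other genes without overlap, Nitab4.5_0000461g0070 and Nitab4.5_0010695g0060, had means of 3.40 and 2.86 in K326 and of 2.14 and 1.61 in Y. Nitab4.5_0000522g0240 had values of 6.57, 2.53 and 3.25 in K326 and of 1.49, 0.6 and 3.99 in Y, so that Y replicate 3 overlapped with K326 (log2 difference -0.84, SE 0.45, limma adjusted p = 0.489). The largest upward difference was that of Nitab4.5_0000381g0130, at 0.64 (SE 0.57, limma adjusted p = 0.689). Its values, 27.71, 10.62 and 8.36 in K326 and 15.27, 15.06 and 44.39 in Y, overlapped.

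In KY against K326, 1 of 41 WRKY genes was lower and 0 were higher, where 0.789% of all tested genes were called, 0.232% higher and 0.557% lower. The log2 differences were above 0 for 17 genes and below 0 for 24, with a median of -0.091 against -0.14 over all genes. At an unadjusted p below 0.05, 3 WRKY genes passed, all lower in KY, beside 11.4% of all genes. Libraries did not overlap for 3 WRKY genes, beside 15.6% of all genes. Besides the called gene these were Nitab4.5_0000555g0130, of the Zn-cluster subgroup, and Nitab4.5_0005781g0050. The first had values of 8.01, 6.81 and 5.21 in K326 and of 2.72, 5.09 and 3.8 in KY (log2 difference -0.67, SE 0.33, limma adjusted p = 0.489). The second had values of 1.59, 1.75 and 1.36 in K326 and of 0.72, 0.81 and 0.89 in KY (log2 difference -0.50, SE 0.21, limma adjusted p = 0.409).

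Leaving out KY replicate 1, which correlated best with a K326 library, raised the count of all genes called in KY minus K326 from 129 to 655 and that of WRKY genes from 1 to 2. The added gene was Nitab4.5_0000461g0070, with values of 3.34, 3.57 and 3.28 in K326 and of 3.55, 1.26 and 1.79 in KY. KY replicate 1 lay at the K326 level and the other KY libraries below it. Its log2 difference was -0.52 with all libraries (limma adjusted p = 0.469) and -0.81 without KY replicate 1 (limma adjusted p = 0.0473). No other fit that tested this gene called it in KY minus K326. KY replicate 1 was singled out by its likeness to K326 in these same values. The added calls are therefore a description and no separate evidence of a difference.

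In KY against Y, 0 of 41 WRKY genes were called by limma, where 1.30% of all tested genes were, 0.483% higher and 0.814% lower. At an unadjusted p below 0.05, 3 WRKY genes passed, beside 13.2% of all genes. One was higher in KY: Nitab4.5_0001591g0020, at 2.23, 2.18 and 3.77 in Y and at 4.01, 5.29 and 4.89 in KY (log2 difference 0.64, SE 0.24, limma adjusted p = 0.303). Nitab4.5_0003540g0070 was at 4.54, 2.79 and 5.21 in Y and at 2.71, 2.38 and 1.29 in KY (log2 difference -0.73, SE 0.29, limma adjusted p = 0.329). Nitab4.5_0015177g0030 was at 2.91, 2.19 and 4.84 in Y and at 1.73, 2.01 and 1.51 in KY (log2 difference -0.61, SE 0.25, limma adjusted p = 0.354). In each of these genes KY and Y did not overlap. In all, 6 WRKY genes showed no overlap, 1 higher and 5 lower in KY, beside 16.6% of all genes.

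**Figure D2:**
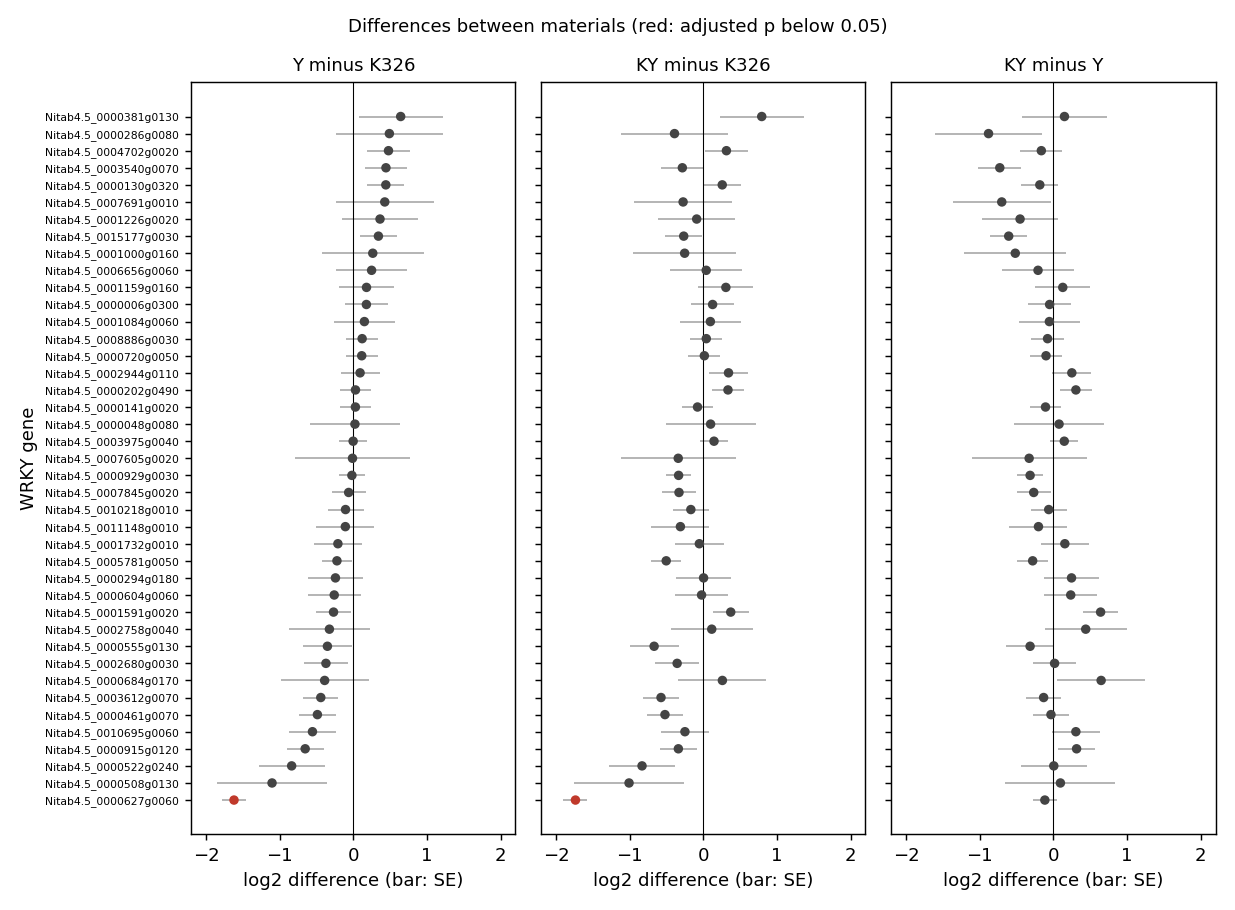
Log2 differences of the 41 WRKY genes on the log2(value + 1) scale in the 3 comparisons (horizontal axes; bars are SE from the limma model over all 9 libraries), with genes in the same order in each panel and genes at an adjusted p below 0.05 in red. Nitab4.5_0000627g0060 is the only red point in Y minus K326 and in KY minus K326, and KY minus Y has none.

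Of the 7 genes of the Zn-cluster subgroup, 1 had a log2 difference from K326 above 0 in Y and 1 in KY. The medians were -0.26 in Y and -0.34 in KY, beside -0.079 and -0.14 over all tested genes, which also lie below 0. Only Nitab4.5_0000627g0060 was called. Nitab4.5_0000929g0030 had the narrowest range of the 41 genes, 1.71-fold between its lowest and highest library. It was at 10.91, 13.29 and 8.54 in K326, at 10.49, 9.95 and 11.37 in Y and at 8.6, 7.75 and 8.6 in KY. Nitab4.5_0001159g0160, the subgroup gene with a difference above 0 in both comparisons, was at 3.07, 4.5 and 2.43 in K326, at 2.74, 2.22 and 8.23 in Y and at 4.73, 4.41 and 3.67 in KY, and its genotypes overlapped.

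Libraries of the same genotype also differed. The median within-genotype SD of the 41 WRKY genes was 0.39 on the log2(value + 1) scale, against 0.29 over all tested genes. By genotype it was 0.30 in K326, 0.44 in Y and 0.33 in KY, where all tested genes had 0.22, 0.25 and 0.30. The part of the genes' level in this spread was not tested. Over the 9 libraries, 4 WRKY genes stayed within a 2-fold range, and 11 spanned at least 10-fold or reached 0. Most of these wide ranges had a lowest value below 1. The shares over all tested genes were not counted, so the ranges are not read as a trait of WRKY genes.

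WRKY values were high in Y replicate 3. Of the 41 genes, 26 had their highest value of all 9 libraries there. Among the Y libraries it was highest for 37 of 41 WRKY genes, or 90.2%, against 44.1% of all tested genes. Its value was at least 2 times the mean of the other Y libraries for 22 WRKY genes (53.7%), beside 9.31% of all tested genes. Since a gene can pass the limit through 1 high library, the count was repeated without it: 39 WRKY genes still averaged at least 1 in the other 8 libraries, and of these 35 were highest of Y in replicate 3. Of the 91 WRKY genes below the limit but above 0, 49 were, or 53.8%. The share over all genes below the limit was not counted.

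Several genes were high in Y replicate 3 and low in the other Y libraries. Nitab4.5_0001000g0160 was at 0.79, 0.56 and 7.5 in Y replicates 1 to 3, at 4.31, 0.68 and 0.54 in K326 and at 1.38, 1.5 and 0.36 in KY. Nitab4.5_0007691g0010 was at 1.03, 0.45 and 7.72 in Y, and Nitab4.5_0000684g0170 at 0.53, 0.69 and 6.37. Nitab4.5_0001226g0020, picked out after its values were seen, was at 0.96, 0.19 and 5.62 in Y and between 0.69 and 1.03 in all K326 and KY libraries. It passed the limit only through Y replicate 3, with a mean of 0.805 without it, so its high value there is part of how it was chosen. In 4 genes another Y library was highest. One of them, Nitab4.5_0000294g0180, was at 1.11, 1.71 and 0.14 in Y; the others were Nitab4.5_0002680g0030, Nitab4.5_0010695g0060 and Nitab4.5_0000202g0490.

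The balance between genotypes shifted with single libraries, Y replicate 3 among them. Without Y replicate 3, 7 of 41 WRKY genes instead of 19 had values above K326 in Y, with a median of -0.34 against -0.11 over all tested genes. In KY minus Y, 30 instead of 17 were then above 0, with a median of 0.20 against -0.035 over all genes. The counts of called WRKY genes, 1 in Y minus K326, 1 in KY minus K326 and 0 in KY minus Y, were the same without Y replicate 3. Without Y replicate 1, 25 genes were above 0 in Y minus K326 and 11 in KY minus Y. Without Y replicate 2 these counts were 22 and 12. In KY minus K326, 17 genes were above 0 with all libraries, 11 without KY replicate 2 and 23 without K326 replicate 1. Leaving out K326 replicate 1 moved the WRKY median there from -0.091 to 0.068.

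In K326, replicate 3 had the lowest value for 31 of 41 WRKY genes (75.6%), beside 40.6% of all tested genes. K326 replicate 1 was highest for 20 and replicate 2 for 17. Of the 22 genes at least 2 times higher in Y replicate 3 than in the other Y libraries, 9 were also at least 2 times higher in K326 replicate 1 than in the other K326 libraries, and these were all the WRKY genes that reached that ratio there (22.0%, beside 4.20% of all tested genes). Among these 9 was Nitab4.5_0000508g0130, whose ratio in Y rests on values near 0, at 0.05, 0.16 and 0.28. The share of all tested genes that reached both ratios was not counted. Nitab4.5_0007605g0020 was at 20.31, 9.05 and 2.77 in K326, at 5.4, 3.18 and 28.42 in Y and at 9.27, 5.95 and 4.56 in KY. Nitab4.5_0000286g0080 was at 15.83, 7.39 and 1.13 in K326, at 5.36, 5.4 and 19.4 in Y and at 4.95, 5.3 and 2.55 in KY. In both genes K326 replicate 1 and Y replicate 3 were the highest libraries. Without K326 replicate 3, 11 of 41 WRKY genes were above K326 in Y and 9 in KY.

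A trio of genes varied together in KY as well. Nitab4.5_0000381g0130 was at 36.51, 12.67 and 30.59 in KY, Nitab4.5_0002758g0040 at 15.9, 5.57 and 14.31, and Nitab4.5_0000048g0080 at 13.21, 3.91 and 9.8. KY replicate 2 was the lowest KY library in each. Of the 41 WRKY genes it was the lowest for 10 and the highest for 22. The same genes were highest of K326 in replicate 1, at 27.71, 17.36 and 15.74, and highest of Y in replicate 3, at 44.39, 17.78 and 16.93. The descriptions do not show whether they are copies of each other. Nitab4.5_0000522g0240, at 2.92, 1.2 and 1.33 in KY, and Nitab4.5_0011148g0010, at 3.06, 1.79 and 2.08, had the same order of KY libraries. Both were also highest of K326 in replicate 1 and of Y in replicate 3. The pattern was therefore not particular to the genes named first, which were grouped after their values were seen. Nitab4.5_0000130g0320 stayed between 5.37 and 10.17 in all libraries but Y replicate 3, where it was at 14.61.

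**Figure D3:**
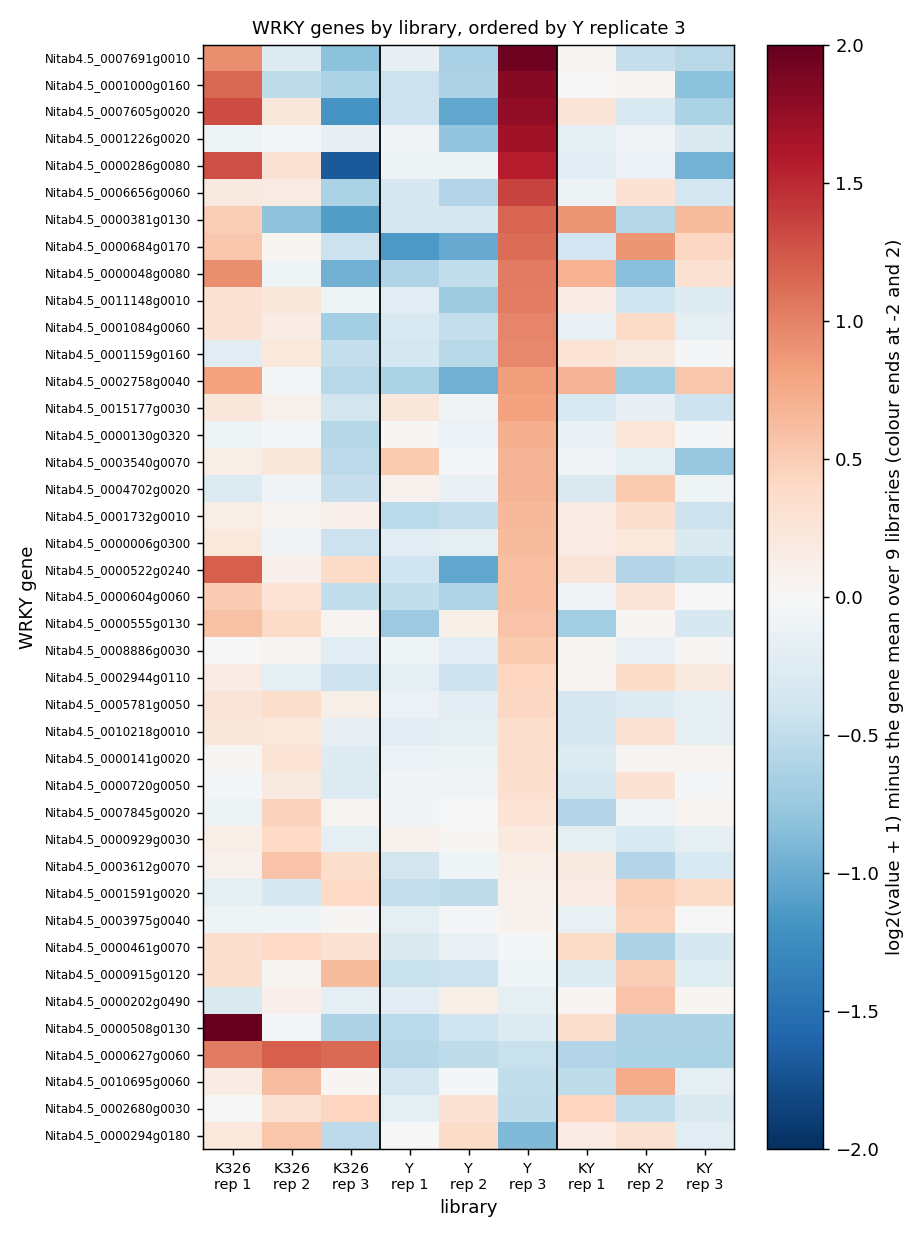
Level of the 41 WRKY genes (rows) in the 9 libraries (columns), as log2(value + 1) minus the mean of the gene over the 9 libraries; rows are ordered by Y replicate 3, and red is above and blue below the gene's mean. In Y replicate 3, 33 of 41 genes are above their mean, against 6 and 5 in Y replicates 1 and 2.

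Over the 41 genes, the median deviation from each gene's own mean was 0.60 log2 units in Y replicate 3 and -0.23 in each of the other Y libraries. It was 0.22, 0.15 and -0.28 in K326 replicates 1 to 3 and -0.051, 0.023 and -0.20 in KY replicates 1 to 3. Over all tested genes it stayed between -0.15 and 0.13. By genotype these medians averaged 0.029 ± 0.27 in K326, 0.046 ± 0.48 in Y and -0.075 ± 0.11 in KY (SD, n = 3), and the genotypes overlapped. The same median over 83 tested histone genes was 0.66, 0.24 and 1.23 in K326 replicates 1 to 3, -0.35, -0.021 and -0.68 in Y and 0.66, -0.78 and -0.59 in KY. It was lowest of Y in replicate 3 and highest of K326 in replicate 3, where the WRKY median was highest and lowest, while K326 replicate 1 stood above replicate 2 in both. Their part in the WRKY values was not tested.

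Without their highest library, 3 of the 41 genes fell below a mean of 1. For Nitab4.5_0001226g0020 and Nitab4.5_0004702g0020 that library was Y replicate 3, and the means without it were 0.805 and 0.965. For the third it was K326 replicate 1. Nitab4.5_0000508g0130 was at 9.26, 0.51 and 0 in K326, at 0.05, 0.16 and 0.28 in Y and at 0.9, 0 and 0 in KY, with a mean of 0.2375 without K326 replicate 1. Its log2 differences from K326, -1.10 in Y and -1.01 in KY, were not called (limma adjusted p = 0.589 and 0.639). The gene with the next identifier, Nitab4.5_0000508g0140, is also described as WRKY and was at 4.08, 0.38 and 0 in K326 and at 0.5 or below in Y and KY. Nitab4.5_0007375g0020 was at 6.45 in K326 replicate 1 and at 0.98 or below elsewhere. In all, 5 WRKY genes below the limit reached 1 in K326 replicate 1 and in no other library.

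Among proteins known to act with WRKY factors, 0 of 21 tested VQ-motif genes and 0 of 17 MAP kinase cascade genes were called by limma in any comparison, where 1.99%, 0.789% and 1.30% of all tested genes were called in Y minus K326, in KY minus K326 and in KY minus Y. At an unadjusted p below 0.05, 3, 2 and 2 VQ-motif genes and 1, 1 and 0 MAP kinase cascade genes passed in the same order, beside 12.5%, 11.4% and 13.2% of all genes. Of 7 NPR1-type genes, relatives of a salicylic acid receptor, and 4 genes of the calmodulin-binding protein 60 type, 0 were called by limma, with 3, 0 and 2 and with 0, 0 and 0 at an unadjusted p below 0.05. Y replicate 3 was the highest Y library for 18 of 21 VQ-motif genes (85.7%), 13 of 17 MAP kinase cascade genes (76.5%), 4 of 4 calmodulin-binding protein genes and 4 of 7 NPR1-type genes (57.1%), beside 44.1% of all tested genes. The median difference of Y replicate 3 from the other Y libraries was 0.76 log2 units for VQ-motif genes, 0.29 for MAP kinase cascade genes, 0.62 for calmodulin-binding protein genes and 0.16 for NPR1-type genes, beside 0.73 for the WRKY genes and 0.066 for all tested genes.

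Among classes of defence proteins, 2 of 13 chitinase-type genes, which act on fungal walls, rose in Y against K326. Over all tested genes 0.777% were called higher there. The 2 genes have neighbouring identifiers. Nitab4.5_0000416g0240 was at 7.02, 4.02 and 5.32 in K326, at 30.73, 41.65 and 85.97 in Y and at 19.06, 16.56 and 27.71 in KY (Y minus K326: log2 difference 2.95, SE 0.37, limma adjusted p = 0.00316). Nitab4.5_0000416g0250 was at 0, 0 and 0.09 in K326, at 8.86, 7.59 and 32.68 in Y and at 3.07, 0.1 and 1.94 in KY (Y minus K326: log2 difference 3.78, SE 0.58, limma adjusted p = 0.0114). With means of 0.03 in K326 and 1.70 in KY, Nitab4.5_0000416g0250 averaged below 1 over those libraries together. It passed the limit only through Y, so its high level there is part of how it was chosen. In both genes every Y library and every KY library stood above every K326 library, with Y replicate 3 highest. Neither gene was called in KY minus K326 or in KY minus Y. One of 14 genes with a Bet v I domain, listed here as PR-10-type, was called. This gene, Nitab4.5_0008046g0010, is also described with a Major latex protein domain. Its description does not settle whether it is a defence protein. It rose from 1.82 ± 1.09 in K326 to 14.08 ± 1.06 in Y and was at 0.89 ± 0.161 in KY (SD, n = 3). Its limma adjusted p was 0.000702 for Y minus K326 and 0.000421 for KY minus Y. Of 16 thaumatin, 9 PR-1-type, 29 glucanase and 5 phenylalanine ammonia-lyase genes, 0 were called by limma. At an unadjusted p below 0.05 the counts in that order were 1, 1, 4 and 0 in Y minus K326, 1, 0, 1 and 0 in KY minus K326 and 1, 1, 1 and 0 in KY minus Y. For chitinase-type genes they were 5, 3 and 3 of 13 in the order of the comparisons, and for PR-10-type genes 5, 6 and 4 of 14, beside 12.5%, 11.4% and 13.2% of all genes. The PR-10-type genes had median log2 differences of -0.41, -0.89 and -0.36, beside -0.079, -0.14 and -0.049 over all tested genes. For Y minus K326 the median was -0.50 for thaumatin, -0.25 for glucanase, -0.20 for PR-1-type and -0.19 for phenylalanine ammonia-lyase genes. For chitinase-type genes it was 0.090. Y replicate 3 was the highest Y library for 9 of 13 chitinase-type genes, 6 of 9 PR-1-type genes, 7 of 16 thaumatin genes (43.8%), 13 of 29 glucanase genes (44.8%), 2 of 14 PR-10-type genes and 1 of 5 phenylalanine ammonia-lyase genes.

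Of 36 genes of the NAC family, which holds known senescence regulators, 0 were called by limma, with 6, 4 and 5 at an unadjusted p below 0.05 in the same order of comparisons. Of 93 AP2/ERF genes, which include the ethylene response factors, 1 rose and 2 fell in Y against K326, 1 fell in KY against K326 and 2 fell in KY against Y, beside 1.99%, 0.789% and 1.30% of all tested genes called. At an unadjusted p below 0.05, 20, 16 and 24 of the 93 passed, beside 12.5%, 11.4% and 13.2% of all genes. Nitab4.5_0001603g0010 rose from 12.76 ± 0.432 in K326 to 39.04 ± 8.18 in Y and was at 9.49 ± 2.07 in KY (SD, n = 3; limma adjusted p = 0.00466 for Y minus K326 and 0.00176 for KY minus Y). Nitab4.5_0000516g0110 and Nitab4.5_0000116g0330 fell in Y, by 1.62 and 1.17 log2 units (limma adjusted p = 0.0122 and 0.0464). Nitab4.5_0006203g0030 fell in KY, by 1.22 log2 units against K326 and by 1.43 against Y (limma adjusted p = 0.0419 and 0.0122). The call against K326 was lost with median-of-ratios scaling, quantile normalization, no filter, a pseudocount of 0.1, only the 2 genotypes fitted or the replicate block, and with a mean of at least 5 the gene was not tested. Y replicate 3 was the highest Y library for 23 of 36 NAC genes (63.9%) and 58 of 93 AP2/ERF genes (62.4%), and the difference from the WRKY share was not tested.

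**Figure D4:**
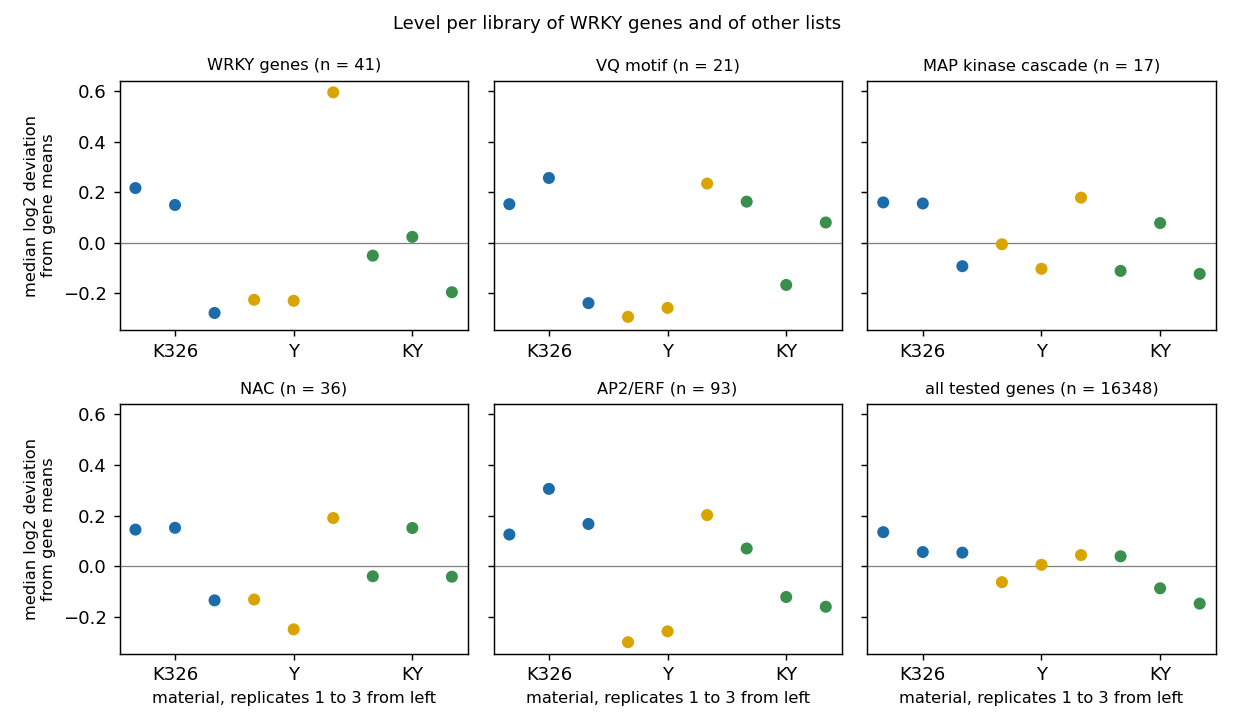
Median over the genes of each list of log2(value + 1) minus the gene's mean over the 9 libraries (vertical axis), per library, for WRKY, VQ-motif, MAP kinase cascade, NAC, AP2/ERF and all tested genes; replicates 1 to 3 stand from left to right within each genotype. The WRKY point of Y replicate 3 is at 0.60, and all tested genes stay between -0.15 and 0.13.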

How the data were processed

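The authors deposited an expression signal for each gene in each library, in 1 table with Nitab4.5 identifiers and domain descriptions. The unit of the signal and any division by gene length are not stated, so levels are not compared between genes; the mean only chose genes to test or name. Per the submitters' processing notes HISAT2, StringTie and RSEM were used; neither their versions nor a genome build is stated there. The 3 deposited mean columns were not used.

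Genes with a mean of at least 1 (16348) were tested on log2(value + 1) by limma 3.58.1 under R 4.3.3, with moderated variances that follow the mean, all 9 libraries in 1 model and Benjamini-Hochberg adjustment over all tested genes. A gene is called at an adjusted p below 0.05. Fits without 1 library kept these genes. The procedure was tested on simulated data. Of 100 genes per comparison made to differ by 1 log2 unit, it recovered 42 in Y minus K326, 32 in KY minus K326 and 34 in KY minus Y. Of 100 made to differ by 2 log2 units, it recovered 78, 79 and 83 in that order. False calls numbered 6, 6 and 5. A gene that was not called may therefore still differ, and a count of 0 called genes does not show that a list was unchanged.

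The genes and lists were chosen with earlier results of these data known. Lists were matched by words in the descriptions; nascent polypeptide-associated complex genes were dropped from the NAC list after the data were seen. Named genes are those called, the 5 largest differences per comparison, the 8 highest means, the 5 largest within-genotype SDs, the 3 genes on each side of the limit and up to 3 called genes per list and comparison; 0 of the 41 genes shared a scaffold and 0 were at 0 in a whole genotype. Others were named after their values were seen, to complete a count or pattern. A table of RefSeq genes had 0 identifiers in common with these, and symbols, coordinates and sequences are not given.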

Additional observations from a re-analysis of the deposited data

How the results depend on the processing

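Nitab4.5_0000627g0060 was called under all 16 alternatives that tested it, with limma adjusted p from 0.000206 to 0.0093 for Y against K326 and from 0.0002 to 0.0115 for KY against K326. A mean of at least 5 left it untested and the WRKY counts at 0. Without 1 library the WRKY count was 1 to 2 in KY against K326, 1 in each case in Y against K326 and 0 in each case in KY against Y. Median-of-ratios scaling moved the median of all genes from -0.079 to 0.022 for Y against K326 and from -0.14 to 0.019 for KY against K326, and the WRKY genes above 0 from 19 to 23 and from 17 to 21. Without 1 library, the uncalled difference of Nitab4.5_0000508g0130 in KY against K326 ranged from -1.67 to 0.011 and changed sign without K326 replicate 1. That of Nitab4.5_0007691g0010 in KY against Y ranged from -1.21 to 0.081 and changed sign without Y replicate 3.

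With a mean of at least 5, which leaves 8 WRKY genes, the median WRKY level was 0.70 in K326 replicate 1, -0.77 in K326 replicate 3, 0.061 in KY replicate 1 and -0.31 in KY replicate 2. With no filter it was 0.087 in Y replicate 3 and -0.041 in KY replicate 3. The within-genotype SD was 0.82 with a mean of at least 5, 0.22 with no filter and 0.60 with a pseudocount of 0.1. In these cases the genes or the scale differ by construction.

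In the partner lists and the NAC and AP2/ERF families together, 6 genes were called in Y against K326, 1 in KY against K326 and 3 in KY against Y. The first count was 10 with only the 2 genotypes fitted and 4 to 10 without 1 library. The second was 0 with a mean of at least 5, median-of-ratios scaling, no filter, only the 2 genotypes, a pseudocount of 0.1, quantile normalization or the replicate block, and 0 to 18 without 1 library. The third was 2 to 6 without 1 library. The highest counts without 1 library came without KY replicate 1; the cause was not tested. Over all settings, the count of all genes called in KY against K326 ran from 60 (mean of at least 5) to 655 (without KY replicate 1), and the lowest counts were 156 in Y against K326 and 114 in KY against Y.

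The labels do not say whether equal replicate numbers pair the libraries, and 3 libraries per genotype cannot settle it. Correlations of same-numbered deviations were -0.117, -0.0748 and -0.150 between Y and K326, -0.109, 0.177 and -0.0671 between KY and K326, and 0.0139, -0.166 and 0.134 between KY and Y. Between differently numbered libraries they ran from -0.306 to 0.322. With the replicate block the WRKY counts were again 1, 1 and 0, those of the lists 5, 0 and 2, and those of all genes 211, 85 and 134 in place of 325, 129 and 212. Read depth is unknown, so no interval is given for values near 0.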
